A study of Mus musculus with 8 samples.

Results

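The protein folding and quality control machinery of the endoplasmic reticulum (ER) was followed in mouse liver through 36 genes of the secretory pathway and the unfolded protein response. The genes were taken by symbol from a list of 36 names, and all 36 were found among the 11784 genes of the deposited table. By role they comprise 4 sensors and signalling factors, 16 folding genes, 7 genes of ER-associated degradation and 9 genes of the translocon. The animals were male C57BL/6J mice that were switched at 9 weeks of age from chow to an amino acid defined diet, either the Control diet (TD.140711) or the Low AA diet (TD.140712). In the Low AA diet, carbohydrate takes the place of most of the amino acids. Livers were taken in the morning about 4 months later, after a fast of about 16 hours, so neither group was in the fed state. No transgene, drug or antibiotic is named for these mice. Each diet had 4 mice, and each liver gave 1 poly(A) RNA library, so each mouse is 1 replicate. The Control mice are F129, F2212, F7111 and F2110, and the Low AA mice are H1126, H828, H817 and H1315. Values in every mouse are given in these orders.

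Every value is taken to be a scaled read count, which is the read count of a gene multiplied by a factor for that mouse and rounded to a whole number. This scaling was inferred from the values, because the sources used here do not give it. Fold changes are log2(Low AA / Control) on values to which 1 was added, so a negative number means a lower level on the Low AA diet. A gene is said to be called when its adjusted p in limma, a linear model fitted across all genes, was under 0.05. The column totals ran from 27876664 to 30799385. All 9 hepatocyte markers examined were present at high values, among them albumin, Alb, at 1457672 ± 151276 on the Control diet and 1670926 ± 130816 on the Low AA diet (SD, n = 4 each), and their sum ran from 2528064 to 3003583 over the 8 mice. Control mouse F2212 stood apart in genes of other kinds. It had 36587 for the pancreatic elastase gene Cela1, the single one of 13 acinar cell markers in the table, against 130 to 288 in the other 7 mice, and its 12 acute-phase genes summed to 583696 against 280164 to 358852. Its part in the results below was not tested beyond leaving that mouse out, and no member was called without it. In whole liver, fewer cells of a type and less RNA per cell cannot be told apart.

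Proteins that a cell exports or places in its membranes enter the ER through the translocon, a channel built of SEC61 subunits, and are folded there by chaperones such as BiP, by lectins and by enzymes that form disulfide bonds. Chains that do not fold are moved back to the cytosol and degraded. When unfolded protein builds up, the sensors IRE1, PERK and ATF6 raise the output of chaperone and degradation genes, in part through the transcription factor XBP1, and slow translation. Hepatocytes export most plasma proteins and so carry a large ER. Values per gene do not show the splicing of Xbp1 RNA, the cleavage of ATF6 or the phosphorylation of the sensors, and none of these was measured here.

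Many of these genes share a control sequence, the ER stress response element (ERSE), at which ATF6 and XBP1 are known to act together with the CCAAT-binding factor NF-Y. Windows from 250 bases before to 50 bases after each RefSeq start site (GRCm38.p6, the assembly known as mm10) were searched on both strands for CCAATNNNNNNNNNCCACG, where N is any base. Windows were found for 30 of the 36 genes. Atf6, Manf, Hyou1, Derl1, Sec61a1 and Ssr2 had none. The element was present in 10 of the 30 windows, against 37 of the 27025 genes with a window, or 0.137%. Of the 8500 genes with a window that are also among the deposited genes, 16 had it, or 0.188%. Because many of these genes were already known to share the element, its excess here is a description and not a test. They are in 8 of the 14 folding genes with a window and in 2 degradation genes, Derl3 and Syvn1. The matches are printed to show what these 10 genes share, with the fixed bases of the element in capitals and each read in the direction of the element. Hsp90b1, which encodes the chaperone GRP94, held 2 of them.
Hspa5, chr2:34772020-34772048, + strand: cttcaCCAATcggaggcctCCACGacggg
Hsp90b1, chr10:86705633-86705661, - strand: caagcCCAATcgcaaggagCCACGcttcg
Hsp90b1, chr10:86705528-86705556, + strand: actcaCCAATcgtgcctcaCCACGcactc
Calr, chr8:84847070-84847098, + strand: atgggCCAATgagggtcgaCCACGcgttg
Canx, chr11:50325795-50325823, - strand: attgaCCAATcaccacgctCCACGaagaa
Pdia6, chr12:17266486-17266514, + strand: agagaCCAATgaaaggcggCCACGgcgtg
Ero1lb, chr13:12565677-12565705, - strand: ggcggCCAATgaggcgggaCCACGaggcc
Dnajc3, chr14:118937822-118937850, + strand: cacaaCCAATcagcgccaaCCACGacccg
Creld2, chr15:88819515-88819543, - strand: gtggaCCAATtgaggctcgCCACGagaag
Derl3, chr10:75893237-75893265, - strand: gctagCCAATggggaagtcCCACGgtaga
Syvn1, chr19:6046527-6046555, + strand: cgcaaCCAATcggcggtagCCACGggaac

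All 11 ERSE matches end upstream of the RefSeq start of their gene, from 194 bases before it in Hsp90b1 to 26 bases before it in Syvn1. The match of Hspa5 ends 47 bases before the RefSeq start but lies inside the longer GENCODE span of the gene. A shorter form, ERSE-II, with the letters ATTGGNCCACG, was in 2 further members, Herpud1 and Dnajb11, against 12 of all 27025 genes, or 0.0444%. The match of Dnajb11 ends 18 bases after its RefSeq start.
Herpud1, chr8:94386372-94386392, + strand: cgctgATTGGgCCACGttgga
Dnajb11, chr16:22857847-22857867, + strand: cggcgATTGGcCCACGcctgg

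The XBP1 element written as TGACGTGG was in no member window and in 0.714% of all genes. TGATGNAAT, the composite element of ATF4 and its partners, was also in no member window and in 1.08% of all genes. The patterns overlap in part. ERSE and ERSE-II end in the same bases, their opening bases are reverse complements, and the XBP1 element ends in the reverse complement of the end of ERSE. A match shows that the letters are there and does not show binding, and no match says only that these letters are not in this window.

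Levels of different genes were set side by side as scaled reads per kilobase of exon, with exon lengths from GENCODE M21 (GRCm38), which matched all 36 genes. The folding enzymes led. P4hb, the protein disulfide isomerase that also serves prolyl hydroxylase and microsomal triglyceride transfer protein, had 15454 per kilobase as the mean over both diets, and stood at the 99.0 percentile of 10713 genes. Hsp90b1 followed with 9666 per kilobase, Calr, the lectin chaperone calreticulin, with 7861, and Hspa5, which encodes BiP, with 6594. The SDs of these 4 genes within a diet ran from 906 to 2220 per kilobase, and the levels of Calr and Hspa5 lie within them of each other. Sec61a1, the channel-forming subunit of the translocon, had 1109 per kilobase. The sensors Eif2ak3 (PERK) and Ern1 (IRE1) had 92.0 and 61.9 per kilobase, and Derl3, a member of the derlin family of retrotranslocation proteins, was lowest at 44.1. Xbp1, which encodes a signalling factor and not a sensor, was far above the sensors, at 1927 per kilobase.

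None of the 36 genes was called between the diets. The lowest adjusted p among them was 0.321 in limma, for Derl2, while 47 of all 11784 genes were called, or 0.399%. At an unadjusted p under 0.05 in limma there was 1 member, again Derl2, or 1 of 36 beside 11.8% of all genes. In no member did the 4 Low AA values lie wholly above or wholly below the 4 Control values, which happened in 6.81% of all genes. Fold changes were below 0 in 29 of the 36 members, beside 49.5% of all genes, and their median was -0.13, beside 0.0023 over all genes. The median did not come evenly from the 4 roles. It was -0.25 in the folding genes, where 15 of 16 were below 0, -0.09 in the degradation genes, where 6 of 7 were, -0.08 in the sensors, where 3 of 4 were, and -0.0066 in the translocon genes, where 5 of 9 were. The folding and degradation genes varied together from mouse to mouse, so these counts are not counts of independent events. The median of the folding genes was -0.11 without Low AA mouse H1126 and -0.42 without Control mouse F2110, which were the lowest mice of their diets in these genes. The median of the degradation genes moved likewise, to -0.038 and -0.31. Marker lists of other cells also lay to one side between the diets, though none of their genes was called. Fold changes were above 0 in 8 of 8 Kupffer cell markers (median 0.23), and below 0 in 4 of 4 cholangiocyte markers (median -0.62), 5 of 5 blood markers (median -0.49) and 9 of 12 acute-phase genes (median -0.40, with Orm1 at -2.06). Of the other lists, 6 of 8 stellate cell markers were below 0 (median -0.16), 6 of 8 sinusoidal endothelial markers above 0 (median 0.056) and 6 of 9 hepatocyte markers above 0 (median 0.068). Their part in the medians of the folding and degradation genes was not tested.

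**Figure D1:**
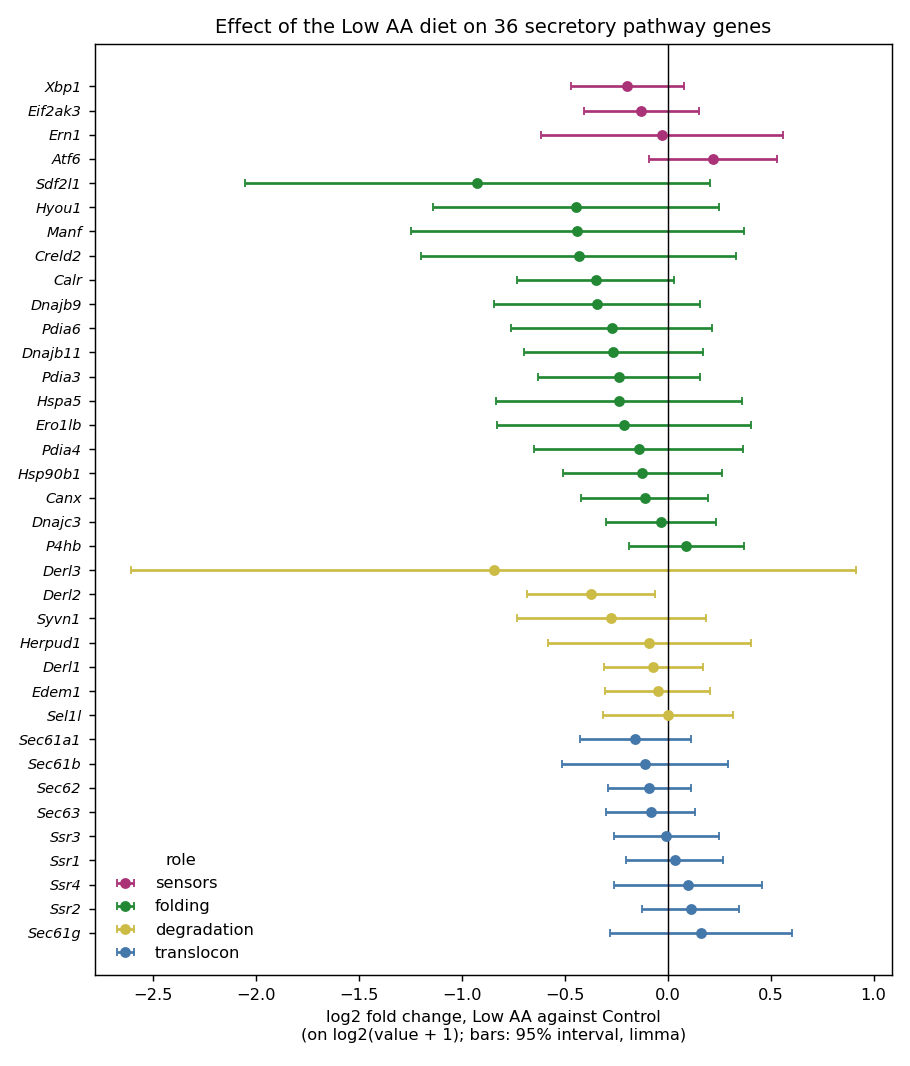
Log2 fold change of each of the 36 genes, Low AA against Control, with the 95% interval from limma (n = 4 mice per diet) on the horizontal axis, coloured by role. Derl2 has the single interval that excludes 0, and Sdf2l1 and Derl3 have the widest intervals.

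Among the folding genes, Hspa5 had scaled read counts of 35120, 25798, 27591 and 17723 in the Control mice and of 13006, 30356, 22506 and 25936 in the Low AA mice. The diets overlapped over most of their range, with F2110 and H1126 the lowest mice of their diets. The means were 26558 ± 7142 and 22951 ± 7368 (SD, n = 4 each), and the log2 fold change was -0.24, with a 95% interval of -0.83 to 0.36 and a limma adjusted p of 0.804. Without Low AA mouse H1126 this fold change was 0.015. Hsp90b1 gave 32622, 29773, 28082 and 22840 on the Control diet and 18633, 30880, 25748 and 29874 on the Low AA diet, with the same mice lowest and a log2 fold change of -0.12 (95% interval -0.51 to 0.26). Its fold change without H1126 was 0.033. For neither of these chaperones was the difference between diets larger than the spread between mice.

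The lowest adjusted p of the folding genes, 0.473 in limma, belonged to Calr. Its values were 20999, 19943, 18998 and 16377 on the Control diet and 10974, 17028, 13536 and 19487 on the Low AA diet, and 2 of the 4 Low AA mice were below all Control mice. The log2 fold change was -0.35 (95% interval -0.73 to 0.03). Its membrane-bound partner Canx, calnexin, was closer between diets, at -0.11, as was Pdia3, the disulfide isomerase that works with both lectins, at -0.24. P4hb was the single folding gene above 0. It had 40396, 49089, 41738 and 39861 on the Control diet and 42663, 40982, 43971 and 55006 on the Low AA diet, a log2 fold change of 0.09 (95% interval -0.19 to 0.37), and it was -0.0033 without Low AA mouse H1315.

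The largest fold changes of the folding genes were in 4 small or regulated ER proteins. Sdf2l1, a partner of the ER DnaJ proteins in the BiP cycle, had 652, 455, 419 and 132 in the Control mice and 87, 296, 160 and 303 in the Low AA mice. All 4 Low AA values were below 3 of the Control values, and the remaining Control mouse, F2110, was lower than all Low AA mice but H1126. The log2 fold change of Sdf2l1 was -0.93, with a 95% interval of -2.05 to 0.20 and a limma adjusted p of 0.533. Hyou1, which encodes the nucleotide exchange factor GRP170, had 5332, 3699, 5565 and 2425 against 1738, 4486, 3010 and 3300, with a log2 fold change of -0.45. Manf, a secreted ER stress protein, had 2869, 1974, 1883 and 970 against 700, 1920, 1249 and 1818 (-0.44), and Creld2, an ER-resident protein with isomerase activity, had 1982, 1333, 1225 and 633 against 538, 1172, 797 and 1224 (-0.43). In each of them the intervals crossed 0, the lowest Control mouse was F2110 and the lowest Low AA mouse was H1126. The remaining folding genes, Pdia4, Pdia6, Dnajb9, Dnajb11, Dnajc3 and Ero1lb, had fold changes from -0.34 in Dnajb9, a DnaJ co-chaperone that holds IRE1 back, to -0.031 in Dnajc3, a DnaJ protein also known as P58IPK.

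**Figure D2:**
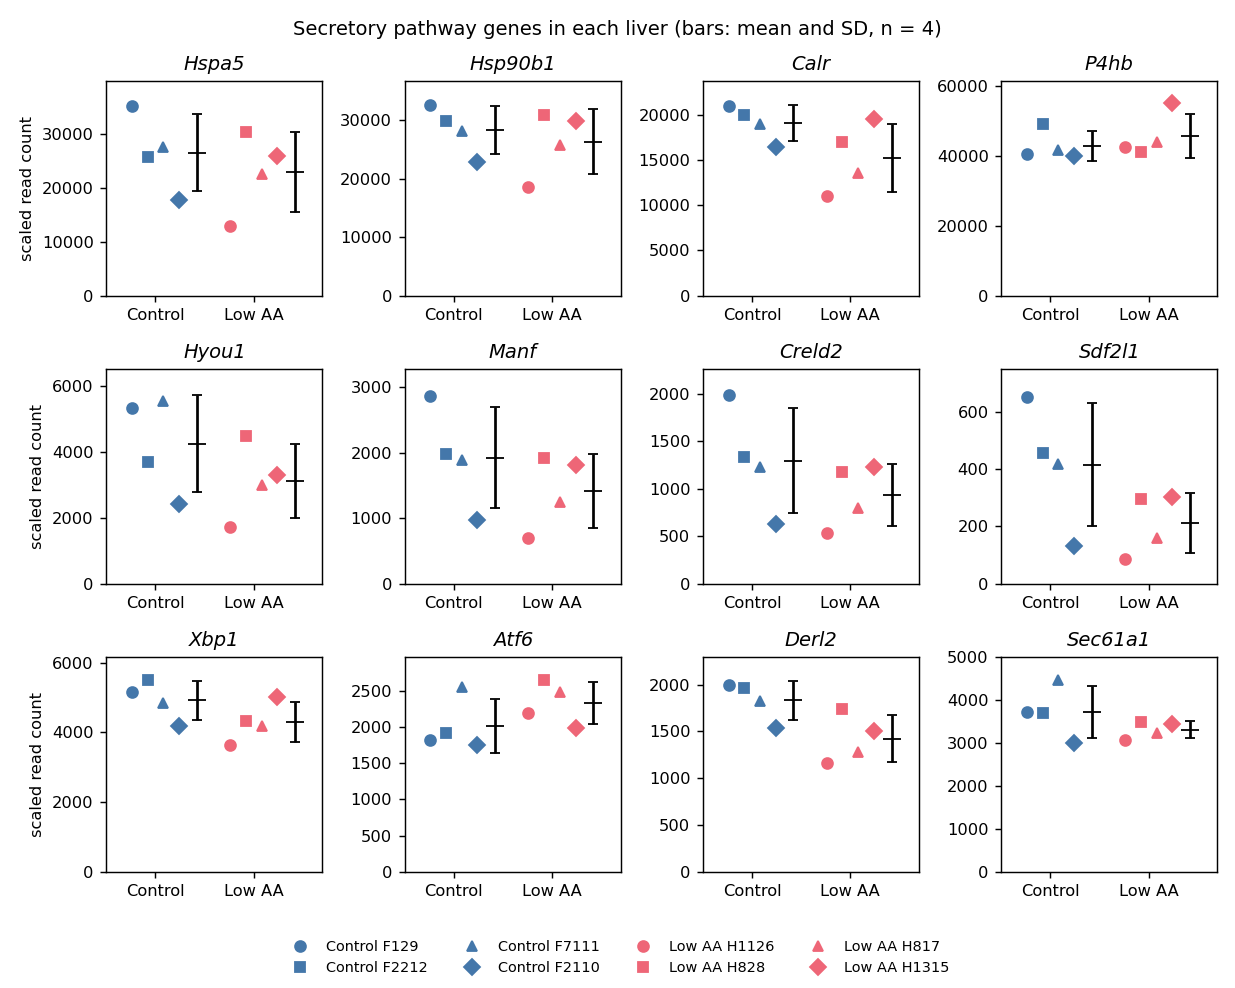
Scaled read count (vertical axes, from 0) of 12 genes in each of the 4 Control and 4 Low AA livers, with 1 symbol per mouse and the mean and SD of each diet beside the points. Control F2110 and Low AA H1126 are the lowest points of their diets in Hspa5, Hsp90b1, Calr, Hyou1, Manf, Creld2, Sdf2l1, Xbp1, Derl2 and Sec61a1.

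Of the sensors and signalling factors, Xbp1, Atf6 and Eif2ak3 varied less between mice than most folding genes, and Ern1 did not. Xbp1 had 5144, 5503, 4832 and 4178 in the Control mice and 3649, 4319, 4183 and 5023 in the Low AA mice, with 3 Low AA mice below 3 of the Control mice and a log2 fold change of -0.20 (95% interval -0.47 to 0.08). Atf6, whose product is cleaved to a transcription factor, gave the highest fold change of all 36 genes. Its values were 1828, 1920, 2557 and 1757 against 2199, 2648, 2491 and 1991, a log2 fold change of 0.22 with a 95% interval of -0.09 to 0.53 and a limma adjusted p of 0.607. All 4 Low AA values were above 3 of the Control values. The diets did not overlap when Control mouse F7111 was left out, which happened in 12.2% of all genes in the same mice. Eif2ak3 had 568, 408, 447 and 443 against 418, 478, 391 and 411, with Control mouse F129 above the rest. Ern1 had 470, 329, 687 and 544 against 418, 731, 528 and 332, with nearly equal means of 508 ± 149 and 502 ± 172 (SD, n = 4 each) and a spread within each diet of over 2 times between the lowest and the highest mouse. The log2 fold changes of Eif2ak3 and Ern1 were -0.13 (95% interval -0.41 to 0.15) and -0.027 (95% interval -0.62 to 0.56).

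Of the degradation genes, Derl2, a derlin that helps to move misfolded chains out of the ER, stood nearest to a difference. It had 1994, 1967, 1829 and 1541 in the Control mice and 1165, 1739, 1283 and 1506 in the Low AA mice. The lowest Control value lay between the highest and the second Low AA value, so that 1 pair of mice kept the diets from separating. The log2 fold change was -0.37 (95% interval -0.69 to -0.06, unadjusted p = 0.0231, adjusted p = 0.321 in limma). Derl3 had 108, 153, 79 and 6 on the Control diet and 32, 33, 24 and 31 on the Low AA diet. The Low AA mice were close together, and 3 of the Control mice were above them while F2110 was below them all. Its log2 fold change was -0.85 (95% interval -2.61 to 0.92). Without F2110 it was -1.84 (limma adjusted p = 0.0233), which was the single call of a member in any fit that left out a mouse. In that fit 35 of all genes were called, or 0.297%. The counts of Derl3 were low in every mouse, and its highest, 153, was in F2212, the mouse with 36587 for Cela1. The part of F2212 in this call was not tested. The other degradation genes had small fold changes. They were -0.27 in Syvn1, the ubiquitin ligase HRD1, -0.09 in Herpud1, an organizer of the HRD1 complex that the unfolded protein response induces, -0.07 in Derl1, -0.05 in Edem1, a mannosidase-like lectin, and 0.00078 in Sel1l, the adaptor of HRD1.

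By their median SD between mice, the translocon genes were the steadiest of the 4 roles. Sec61g, Sec61b and Ssr4 still varied more than most genes, at the 80.1, 72.3 and 65.2 percentiles of this SD. Sec61a1 had 3720, 3696, 4473 and 3011 on the Control diet and 3071, 3485, 3231 and 3451 on the Low AA diet, with 3 Control mice above all Low AA mice and F2110 below them, and a log2 fold change of -0.16 (95% interval -0.43 to 0.11). The small channel subunits went to opposite sides, with -0.11 in Sec61b (95% interval -0.52 to 0.29) and 0.16 in Sec61g (95% interval -0.28 to 0.61). Sec62 and Sec63, which help small and post-translationally inserted chains through the channel, were at -0.09 and -0.08 with narrow 95% intervals of -0.29 to 0.11 and -0.30 to 0.13. The subunits Ssr1, Ssr2, Ssr3 and Ssr4 of the translocon-associated protein complex were at 0.034, 0.11, -0.0066 and 0.097. Their 95% intervals were, in the same order, -0.20 to 0.27, -0.13 to 0.35, -0.26 to 0.25 and -0.26 to 0.46.

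Mice on the same diet differed more in most of the 16 folding members than in the median gene. As the SD of log2 values within a diet, pooled over both diets, the median was 0.39 in the folding genes, 0.22 in the degradation genes, 0.20 in the sensors, 0.16 in the translocon genes and 0.22 over all genes. Canx, Dnajc3 and P4hb, at 0.21, 0.17 and 0.17, were below the median of all genes. So was the median of 0.20 over 35 further folding enzymes outside the 36 members. Derl3 and Sdf2l1, with SDs of 1.44 and 0.92, were at the 99.8 and 99.1 percentiles of all genes. Manf was at the 97.3, Creld2 at the 96.7, Hyou1 at the 95.6, Ero1lb at the 93.4 and Hspa5 at the 92.5 percentile. The highest of the 8 mice exceeded the lowest by 7.49 times in Sdf2l1, 4.10 times in Manf and 2.70 times in Hspa5. At the other end, Sec62 had an SD of 0.09, at the 4.96 percentile, and its highest mouse exceeded its lowest by 1.19 times. Among the 30 genes with a promoter window, the 12 with an ERSE or ERSE-II had a median SD of 0.37 and all had fold changes below 0, and the 18 without had a median SD of 0.22 and 13 were below 0. The group without holds the translocon genes and sensors. Within the folding genes, the 9 with an element had a median SD of 0.33 and a median fold change of -0.236, and the 5 without had 0.39 and -0.238, so the split over all 30 genes was not seen there. Over the folding and degradation genes together, the 12 with an element had 0.37 and -0.25, and the 8 without had 0.26 and -0.19. None of these differences was tested. Sdf2l1, with the second highest SD of the 36 genes, had neither element in its window, and P4hb, with an SD of 0.17, also had neither.

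**Figure D3:**
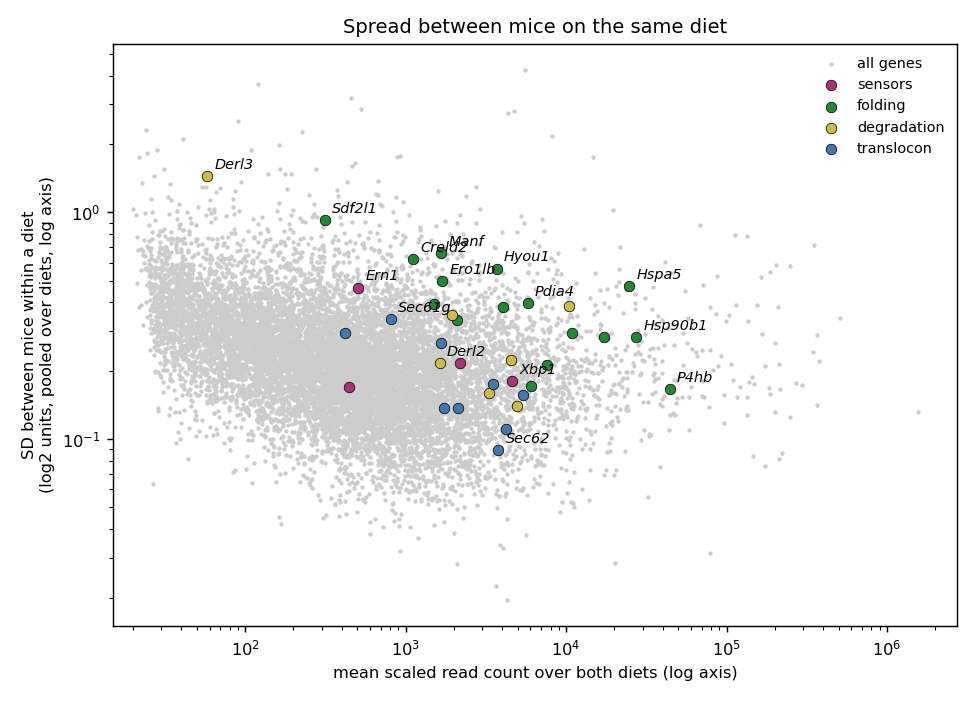
SD of log2 values between mice of the same diet (vertical log axis, pooled over the 2 diets) against the mean scaled read count (horizontal log axis) for all 11784 genes in grey and the 36 genes in colour by role. Sdf2l1, Manf, Creld2, Hyou1 and Hspa5 lie high for their level, and Sec62 lies low.

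The spread of the folding genes was shared between them, a pattern noticed after the values had been seen. Low AA mouse H1126 was the lowest of its diet in 15 of the 16 folding genes and 6 of the 7 degradation genes, and among all genes in 22.6%. Control mouse F2110 was likewise the lowest of its diet in 15 of 16 and 6 of 7, and among all genes in 20.7%. Both at once held for 14 of the 16 folding genes, or 87.5%, and for 5 of the 7 degradation genes, 1 of the 4 sensors and 3 of the 9 translocon genes, beside 6.03% of all genes. The exceptions among the folding genes were P4hb, in which H828 was the lowest Low AA mouse, and Dnajb9, in which F2212 was the lowest Control mouse. The mean log2 level of the folding genes, taken as the distance from its mean over the 8 mice, was 0.47, 0.21, 0.28 and -0.40 in the Control mice and -0.64, 0.21, -0.22 and 0.10 in the Low AA mice. These 2 mice were the lowest of their diets, and the other 6 mice ran from -0.22 to 0.47. The gap to the next mouse was 0.707 of the range of its diet for F2110 and 0.495 for H1126, neither past Dixon's 95% limit. The degradation genes were at -0.55 in F2110 and -0.30 in H1126. Much of the value in F2110 came from Derl3, which had 6 there, and without Derl3, an alternative added after the values were seen, the other 6 genes were at -0.22 in F2110 and -0.30 in H1126. The translocon genes kept between -0.17 and 0.13 in all 8 mice.

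**Figure D4:**
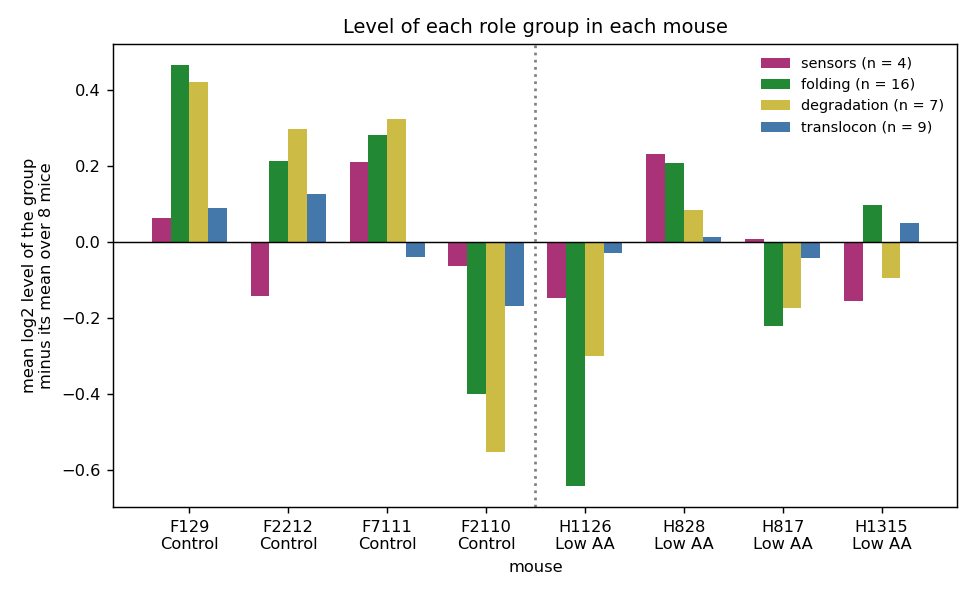
Mean log2 level of the genes of each role in each mouse, as the distance from the mean of that role over the 8 mice (vertical axis, bars from 0), with the Control mice on the left and the Low AA mice on the right. The folding genes are lowest in Low AA H1126 (-0.64) and Control F2110 (-0.40), while the translocon genes stay between -0.17 and 0.13.

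Other properties of these 2 mice were set beside this pattern. H1126 and F2110 had the lowest fitted scale factors, 0.902 and 0.940, against 0.965 to 1.11 in the other mice, and an estimated 31544122 and 30158875 reads on the listed genes, against 26944597 to 30238357 in the others. Hepatocyte markers were at 0.013 and -0.022 in H1126 and F2110 on the same log2 distance scale. Over the 8 mice these markers ran from -0.11 to 0.09. Kupffer cell markers, from the macrophages of the liver, were at 0.27 in H1126 and -0.23 in F2110. Sinusoidal endothelial markers were at 0.063 in H1126 and 0.19 in F2110, each the highest of its diet. In the same order, cholangiocyte markers were at 0.048 and 0.48, blood markers at 0.0067 and 0.39, and stellate cell markers at 0.11 and -0.0015. H1126 was the highest Low AA mouse in these last lists, and F129 was above F2110 in each. Plasma cell markers were at -0.029 and -0.23, and Cela1 at -0.88 and -1.5. The 12 acute-phase genes were at -0.23 and 0.020. The part of any of these in the level of the folding genes was not tested. When F2110 was left out, 6 members (Dnajb11, Sdf2l1, Creld2, Derl2, Derl3 and Sec61a1) had lower values in every Low AA mouse than in every Control mouse, or 6 of 36 beside 10.2% of all genes in the same 7 mice. When H1126 was left out instead, 0 members were without overlap, beside 9.38% of all genes, and 23 of 36 had fold changes below 0.

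A further 187 genes of the secretory pathway, in 11 lists, were examined with the same fit, and 0 of them were called. At an unadjusted p under 0.05 in limma there were 16, 5 with fold changes above 0 and 11 below, and 11 of 187 were without overlap between diets. Neither share exceeds the 11.8% and 6.81% of all genes. The median log2 fold change over the 187 genes was -0.02. Over 35 further folding enzymes outside the 36 members the median was -0.03, with 16 of the 35 above 0, and its difference from the -0.25 of the 16 members was not tested. Among these enzymes Creld1 was at -0.46, Fkbp11 at -0.42 and Pdia5 at -0.37, values given after they were seen. The mice H1126 and F2110 were at once the lowest of their diets in 6 of these 35 genes in 6 of 30 further degradation genes, in 4 of 20 cargo and retrieval receptors and in 3 of the 6 signal peptidase genes, or 50%, beside 6.03% of all genes. In the other 7 lists the share ran from 0% to 16.7%. This share covers only the pair of mice picked from the folding genes, and other lists had other mice at their extremes. F2212 was the lowest Control mouse in 12 of 17 genes of the COPII coat, beside 30.7% of all genes. H1315 was the highest Low AA mouse in 6 of 6 signal peptidase genes and in 7 of 10 genes of the signal recognition particle and its receptor, beside 30.7% of all genes.

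The lowest adjusted p in these lists, 0.0847 in limma, was that of Os9, a lectin that hands misfolded glycoproteins to the HRD1 ligase. Its values were 9670, 8038, 7937 and 9092 in the Control mice and 6163, 5396, 6594 and 6434 in the Low AA mice, without overlap, and the log2 fold change was -0.50 (95% interval -0.73 to -0.26). Os9 did not follow the mouse pattern of the chaperones, since H828 and F7111 were its lowest mice. Nfe2l1, an ER-anchored transcription factor that raises proteasome genes, was higher in every Low AA mouse, with 6270, 7167, 7257 and 5581 against 5036, 4611, 4599 and 4425 in the Control mice (0.49 on the log2 scale, limma adjusted p = 0.0917). Fkbp14, a collagen-directed prolyl isomerase, was also higher in every Low AA mouse, at 339, 308, 309 and 287 against 208, 242, 240 and 206 (0.47 on the log2 scale, limma adjusted p = 0.119). None of these 3 genes passed the threshold of 0.05.

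The catalytic subunits of the oligosaccharyltransferase, which attaches N-glycans, went to opposite sides. Stt3b, which acts on chains that the other form missed, had 3999, 4452, 4124 and 4209 in the Low AA mice against 3424, 3146, 3281 and 3200 in the Control mice, without overlap (0.36 on the log2 scale, limma adjusted p = 0.106). Stt3a, which acts at the translocon and is named here after its values were seen, had 1937, 1981, 1916 and 2054 against 2223, 2061, 2484 and 2074, also without overlap, at -0.16 (limma adjusted p = 0.550). The spread of Stt3b within diets was small, with an SD of 0.06 at the 0.925 percentile of all genes. The difference between the fold changes of these subunits was not tested. Tram1, a membrane protein beside the translocon, had 2077, 2203, 2083 and 2262 in the Low AA mice against 2957, 2494, 3117 and 2574 (-0.36 on the log2 scale, limma adjusted p = 0.163). The other genes without overlap at an unadjusted p under 0.05 were Rnf5, an ER ubiquitin ligase, at -0.29, Camlg, a receptor for tail-anchored proteins that the table lists as Caml, at -0.26, Bet1, a SNARE of ER-to-Golgi transport, at -0.24, and Mmgt1, a subunit of the ER membrane protein complex, at 0.21, with limma adjusted p from 0.3001 to 0.422.

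**Figure D5:**
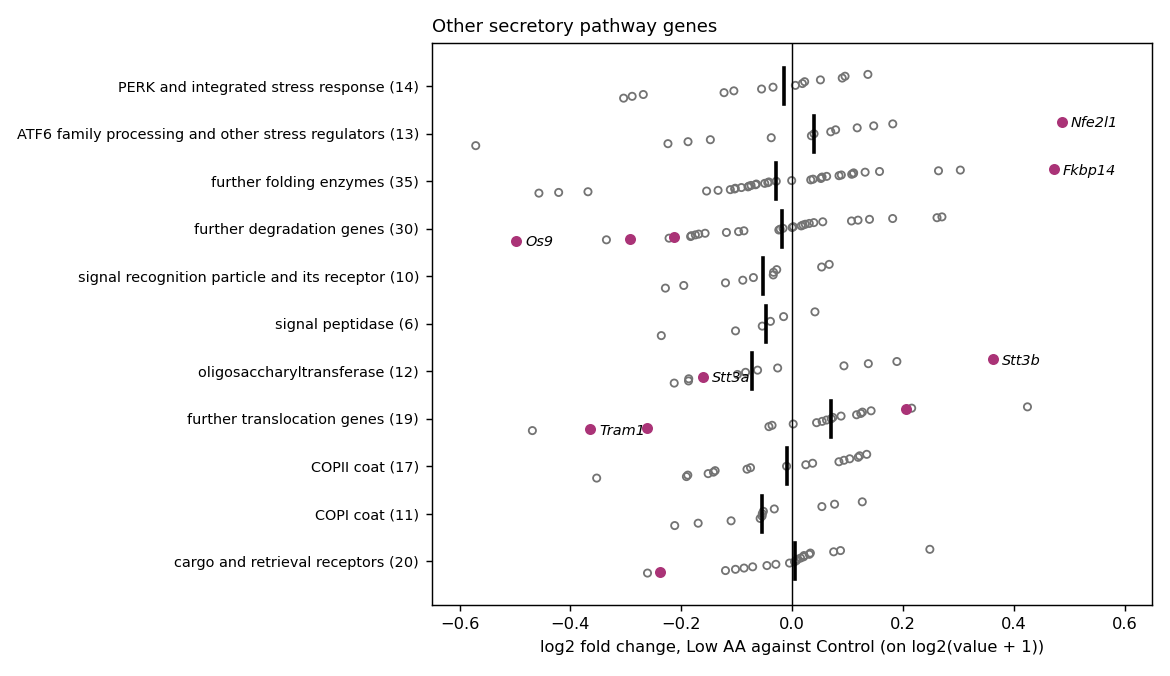
Log2 fold change, Low AA against Control, of 187 further genes of the secretory pathway in 11 lists (number of genes in brackets), with the median of each list as a black bar. Filled points are genes without overlap between the diets, and no gene was called.

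Genes of the PERK branch and of the wider integrated stress response lay on both sides of 0. Over 14 genes of PERK signalling and the integrated stress response, which amino acid shortage can also start through the kinase GCN2, 7 fold changes were above and 7 below 0, with a median of -0.014. Atf4, its central transcription factor, had 2227, 2520, 2078 and 2432 in the Control mice and 2090, 1837, 2026 and 2593 in the Low AA mice, a log2 fold change of -0.12. Ddit3, which encodes CHOP, had 226, 137, 137 and 134 against 115, 126, 212 and 168 (-0.035), with 1 high mouse on the Control diet. Trib3, a target of ATF4 and CHOP, had 546, 487, 372 and 452 against 546, 513, 310 and 671 (0.095). The lowest fold changes of this list were -0.30 in Eif2ak2 and -0.29 in Eif2ak4, and the highest was 0.14 in Nfe2l2. A median near 0 does not exclude a change in single genes. The limma intervals ran from -1.15 to 0.94 in Chac1, from -1.24 to 0.70 in Atf3 and from -0.55 to 0.48 in Ddit3. Creb3l3, the liver-enriched relative of ATF6 also known as CREBH, had 15192, 17636, 13279 and 15007 against 14827, 15622, 15948 and 15913 (0.035), among the steadiest of these genes. The lists of traffic genes were also close to 0, with medians of -0.010 for 17 genes of the COPII coat, which carries cargo from the ER, -0.05 for 11 genes of the COPI coat, which returns it, and 0.0060 for 20 cargo and retrieval receptors. The signal recognition particle with its receptor had a median of -0.05 over 10 genes, signal peptidase of -0.05 over 6 genes, and the oligosaccharyltransferase of -0.07 over 12 genes. Further translocation genes had a median of 0.07 over 19 genes, and ATF6 processing and other stress regulators 0.04 over 13 genes.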

How the data were processed

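Liver poly(A) RNA of 4 Control and 4 Low AA mice was sequenced from stranded libraries as single reads. The submitters' processing notes name bcl2fastq 1.8.2, STAR 2.5.0a, RSEM 1.2.6, edgeR 3.10.5, R 3.2.1 and the build mm10, without saying what each was used for. For each gene and mouse the authors deposited a signal, a whole number taken here to be a scaled read count. Next to it are columns of fold change and FDR that hold their own test and were not used. The scaling is not given in the sources used here. It was inferred from evenly spaced gaps or doublings among low whole numbers, which fitted factors of 0.902 to 1.11 and improved the log likelihood by 29.0 to 291.2 in each mouse. The totals divided by these factors, 26944597 to 31544122, are an estimate of reads on listed genes. The third highest value of every gene was at least 28, so the table leaves out weakly expressed genes.

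After 1 was added and log2 taken, the diets were compared in limma 3.58.1 (R 4.3.3), two-sided, with no filter added. The variance followed a trend in the mean, and p-values were adjusted by Benjamini-Hochberg over 11784 genes. No mouse code occurs in both diets, so mice were not paired. Each p-value weighs the difference between diets against the spread between mice. For each gene limma moves that spread toward the trend over all genes, so p-values and intervals do not rest on the values of that gene alone. Groups came from the diet label. Members and lists were chosen with earlier results of these data known. All members could be named. Values in every mouse were set for Hspa5, Hsp90b1, Xbp1, Atf6, Ern1, Eif2ak3, Sec61a1 and members with an unadjusted p under 0.05, and those of other members were added for their fold change or spread. From the further lists, 194 genes of which 187 matched, genes without overlap at an unadjusted p under 0.05 were named, with Atf4, Ddit3, Trib3 and Creb3l3. Older symbols were matched through gene tables. Alternatives were a pseudocount of 0.1 or 5, only the 8000 most abundant genes, equal column totals, no trend, robust moderation and each mouse left out. Figures were drawn with matplotlib 3.10.9 and tables handled with pandas 2.3.3 in Python 3.11.15.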

Additional observations from a re-analysis of the deposited data

Results flagged for a closer look

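Among 106 groups of 4 values examined on the log2 scale, 6 had a mouse far from the other 3, measured as its gap to the nearest other mouse divided by the range of the group. Chance passes Dixon's 95% limit in about 1 in 20 groups. Control mouse F2110 was low for Canx (0.83), for Dnajb11 (0.936) and for the mean of the degradation genes (0.873). The last rests on Derl3, which was at 6 in that mouse. Without Derl3, left out after the values were seen, the figure was 0.521 and did not pass the limit. Low AA mouse H828 was low for Sec61g (0.871), Low AA mouse H1315 was high for Ssr2 (0.906), and Control mouse F129 was high for Ddit3 (0.958).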

How the results depend on the processing

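Of all genes, 47 were called, and the count was 19 among the 8000 genes with the highest mean, 30 without a mean-variance trend, and 16 to 77 with a mouse left out, lowest without H817 and highest without F2212. The count of called members was 0 under every other setting and 0 to 1 with a mouse left out, the 1 being Derl3 without F2110. Members without overlap between diets numbered 0 to 6 of 36 with a mouse left out, 6 without F2110, 2 without H828 (Derl2 and Sec63) and 2 without F7111 (Atf6 and Derl1). The shares of all genes without overlap in the same fits were 10.2%, 10.3% and 12.2%. Another pseudocount and equal column totals changed neither the counts of called genes and called members nor that of members without overlap. With robust moderation 45 genes and 0 members were called, and overlap does not depend on it. The further lists held 0 called genes under every setting. No paired analysis was possible because no mouse code occurs in both diets. With 4 mice a diet and this spread, small changes of the folding genes could not be told from none. In the most variable of them large changes were not excluded either. The limma intervals of the log2 fold change ran from -2.05 to 0.20 in Sdf2l1, -1.25 to 0.37 in Manf, -1.20 to 0.33 in Creld2 and -1.14 to 0.25 in Hyou1. A steadier gene such as P4hb had a narrower one, from -0.19 to 0.37.

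Of the single members and role-named genes, 15 turned to the other side of 0 when a mouse was left out and under no other setting. With a mouse left out, the log2 fold changes ran from -0.23 (without H828) to 0.15 (without H1315) in Ern1, from -0.42 (without F2110) to 0.015 (without H1126) in Hspa5, from -0.22 to 0.033 in Hsp90b1 and from -0.32 to 0.027 in Pdia4 (without the same 2 mice), and from -0.0033 (without H1315) to 0.16 (without F2212) in P4hb. Without F2110 at one end and without F7111 at the other they ran from -0.098 to 0.060 in Dnajc3, from -0.091 to 0.098 in Sel1l, from -0.11 to 0.044 in Edem1, from -0.031 to 0.11 in Ssr1 and from -0.097 to 0.064 in Ssr3. They ran from -0.31 (without F2110) to 0.052 (without F129) in Herpud1, from -0.050 (without F7111) to 0.24 (without F2212) in Ssr4, from -0.20 (without H817) to 0.15 (without F129) in Ddit3, from -0.054 (without H1315) to 0.32 (without H817) in Trib3 and from -0.030 (without F7111) to 0.11 (without F2212) in Creb3l3. Which property of a mouse lies behind these shifts was not tested.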
